A study of Mus musculus with 2 samples.

Results

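Venous and activated endothelial cells of the mouse aorta were described from droplet-based single-cell RNA sequencing. They were chosen by measured values. A barcode was kept with at least 1000 UMIs (tags that count captured transcripts once each), at most 20% mitochondrial UMIs, and at least 3 UMIs, and 1500 per 1000000 UMIs, of the pan-endothelial genes Cdh5, Pecam1, Egfl7, Tie1 and Cldn5 together. It counted as venous where the venous panel (Selp, Ackr1, Sele and Emcn) held at least 2 UMIs and strictly more than the arterial panel (Gja5, Sema3g, Sox17, Bmx and Stmn2) and the capillary panel (Gpihbp1, Cd300lg, Rbp7 and Btnl9). This rule found 459 members among 1613 endothelial barcodes and 28892 barcodes in all. Of these, 87 came from the library labelled Kif13b-/- and 372 from the wild-type library. The levels of the 18 genes in the rule are therefore a description and not a finding, and so is every contrast with the arterial and capillary classes, which the same rule defined.

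Venules and veins are where leukocytes leave the blood. Their endothelium stores P-selectin (Selp) in Weibel-Palade bodies together with von Willebrand factor and makes E-selectin (Sele) when stimulated by cytokines, and both selectins slow rolling leukocytes. Ackr1 is a receptor that binds chemokines without signalling and is known as a venular marker, and Emcn (endomucin) is a surface sialomucin of venous and capillary endothelium. Csf3 encodes granulocyte colony-stimulating factor, which stimulated endothelium can release.

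The study compared the aorta of 1 wild-type library with that of 1 library titled Kif13b-/-, whose genotype label reads knock down. Kif13b encodes a kinesin motor, and the series title places its question in macrophages, MERTK and the engulfment of dying cells in atherosclerosis. Cells were captured with 10x 3' v3.1 chemistry. The sources used here give no strain, age, sex, diet, number of animals or site of the Kif13b lesion. Members of the library labelled Kif13b-/- are called Kif13b-/- members below. With 1 library per genotype no difference could be tested across animals, and every interval is a 95% interval that covers counting error only.

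The promoters of the 4 panel genes are shown because these genes chose the cells and Selp led most of them. Each run covers 250 bases before to 50 bases after the annotated start, 5′ to 3′ on the strand of the gene, from RefSeq on GRCm38.p6, the build also named mm10. They are Selp at chr1:164115014-164115313 (plus strand), Sele at chr1:164047984-164048283 (plus strand), Ackr1 at chr1:173333454-173333753 (minus strand) and Emcn at chr3:137340828-137341127 (plus strand). Capitals mark the ETS core GGAAG or its reverse complement CTTCC.
Selp: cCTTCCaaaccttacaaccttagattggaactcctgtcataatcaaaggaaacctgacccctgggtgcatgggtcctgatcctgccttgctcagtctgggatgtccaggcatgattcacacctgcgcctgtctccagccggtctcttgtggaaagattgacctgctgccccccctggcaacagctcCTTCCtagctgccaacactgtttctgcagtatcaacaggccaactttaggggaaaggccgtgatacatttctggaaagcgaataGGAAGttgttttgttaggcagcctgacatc
Sele: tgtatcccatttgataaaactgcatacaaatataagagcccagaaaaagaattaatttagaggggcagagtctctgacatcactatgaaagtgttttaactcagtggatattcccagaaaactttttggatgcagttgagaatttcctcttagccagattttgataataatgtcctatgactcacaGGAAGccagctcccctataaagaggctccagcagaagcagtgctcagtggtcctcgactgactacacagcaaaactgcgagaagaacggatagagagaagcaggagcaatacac
Ackr1: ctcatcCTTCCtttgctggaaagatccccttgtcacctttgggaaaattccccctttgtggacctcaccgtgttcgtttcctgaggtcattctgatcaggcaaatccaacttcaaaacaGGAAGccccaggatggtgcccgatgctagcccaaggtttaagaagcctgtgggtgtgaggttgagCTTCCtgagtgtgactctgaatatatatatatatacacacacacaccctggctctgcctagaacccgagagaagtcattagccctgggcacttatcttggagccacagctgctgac
Emcn: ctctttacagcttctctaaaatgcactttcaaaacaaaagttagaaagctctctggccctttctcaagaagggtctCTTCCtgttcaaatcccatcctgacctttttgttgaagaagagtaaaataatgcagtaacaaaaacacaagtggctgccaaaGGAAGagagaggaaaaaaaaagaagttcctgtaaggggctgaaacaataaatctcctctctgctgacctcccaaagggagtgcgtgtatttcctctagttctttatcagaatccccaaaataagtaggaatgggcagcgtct

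The ETS core was searched on both strands. It occurred 3 times in the Selp window, once in that of Sele, 3 times in that of Ackr1 and 2 times in that of Emcn. It is common: 71.4% of the 32851 promoters in the table (chromosome 18 left out) hold it. The motif TATAAA, held by 13.6% of promoters, occurred only in the Sele window among these 4, at 49 bases before the start and without overlap with the ETS core. The strict NF-kB consensus GGGRNNYYCC (R is A or G, Y is C or T, N is any base), held by 8.46% of promoters, had no exact match in the 4 windows. Sites that differ from this string were not searched for, so the search does not show that the windows lack NF-kB sites. Selp and Sele are neighbours on chromosome 1, with the annotated Sele gene at 164048234 to 164057677 and the Selp gene at 164115264 to 164150026, both on the plus strand. Csf3 lies on chromosome 11 at 98701263 to 98703629 on the plus strand.

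The 2 libraries differed in depth, and their members did too. Kif13b-/- members had a median of 6323 UMIs (1065 to 80599) and 903791 UMIs in all. Wild-type members had a median of 3205 UMIs (1020 to 47712) and 1542651 UMIs in all. The median mitochondrial share was 6.60% in Kif13b-/- members and 5.31% in wild-type members. The libraries shared 52 barcode sequences, of which 1 was a Kif13b-/- member and 0 were wild-type members.

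RNA of other lineages was present in the members of both libraries. The summed level of 6 smooth muscle markers was 1421 per 1000000 UMIs of the class total (CPM) in Kif13b-/- members and 3244 CPM in wild-type members, against 22985 and 23017 CPM in the smooth muscle barcodes of the same libraries. The 6 fibroblast markers summed to 2563 CPM in Kif13b-/- members and 3792 CPM in wild-type members. The 6 chondrocyte markers were higher in Kif13b-/- members, with 2813 CPM in Kif13b-/- members and 1003.5 CPM in wild-type members. In 55 of 87 Kif13b-/- members and 244 of 372 wild-type members the markers of another lineage had more UMIs than the 5 pan-endothelial genes. Chondrocyte markers had the most UMIs, shared leads counted for each lineage, in 26 of these 55 Kif13b-/- members and in 9 of the 244 wild-type ones, smooth muscle markers in 9 and 130, and fibroblast markers in 18 and 108. A lead was shared in 0 Kif13b-/- and 10 wild-type members. The chondrocyte markers include Cytl1, which is also on the arterial identity list used below. Cytl1 had 615 and 668 CPM in Kif13b-/- and wild-type members with more UMIs of another lineage, and 471 and 419 CPM in the others. Its part in the chondrocyte sums and leads was not separated. The macrophage markers were all detected and summed to 125 and 336 CPM. All 6 erythroid markers were at 0 in both libraries. Of 6 platelet markers 2 were detected in Kif13b-/- members and 3 in wild-type members, with sums of 19.9 and 18.8 CPM. Gp1bb, Gp9 and Gp1ba were at 0 in both.

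The share of venous cells among endothelial barcodes was close in the 2 libraries. It was 27.7% (87 of 314; Clopper-Pearson interval 22.8% to 33.0%) in the Kif13b-/- library and 28.6% (372 of 1299; 26.2% to 31.2%) in the wild-type library, and the intervals overlap. Arterial barcodes made up 35.0% and 29.5%, and capillary barcodes 14.3% and 8.93%, of the Kif13b-/- and wild-type endothelium. After every barcode was thinned to 1000 UMIs before the rule, venous barcodes were 17.8% (35 of 197) in the Kif13b-/- library and 15.4% (121 of 788) in the wild-type library. Other settings set the libraries further apart. Among endothelial barcodes with a panel class, venous barcodes were 36.0% (87 of 242) in the Kif13b-/- and 42.7% (372 of 871) in the wild-type library. With at least 2000 UMIs per barcode they were 28.7% and 34.2% of endothelial barcodes. Among barcodes of all kinds, venous barcodes were 1.27% in the Kif13b-/- library and 2.20% in the wild-type library, intervals 1.02% to 1.56% and 1.98% to 2.43%. Fewer cells recovered at dissociation and fewer cells in the tissue cannot be told apart in these shares. The shares count barcodes and not cells: 6868 Kif13b-/- and 16909 wild-type barcodes passed the filter, more than the 6000 cells loaded per library.

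Most members were chosen through Selp. It had more UMIs than each other panel gene in 66 of 87 Kif13b-/- members and 244 of 372 wild-type members. Emcn led 12 and 53 members, Sele 2 and 13, Ackr1 1 and 4, and 6 and 58 members had a shared lead. Kif13b-/- members carried a median of 27 panel UMIs (2 to 172) and wild-type members 6.5 (2 to 126). All 4 panel genes were detected in 36 of 87 Kif13b-/- members and 59 of 372 wild-type members. Near the threshold, the 4 Kif13b-/- and 55 wild-type members with exactly 2 panel UMIs had Selp at 250.4 and 385 CPM and Plvap at 501 and 280 CPM. The 12 Kif13b-/- and 53 wild-type endothelial barcodes just outside, with 1 venous UMI alone, had Selp at 174 and 129 CPM and Plvap at 319 and 291 CPM.

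The 4 panel genes were higher in members than in arterial and capillary barcodes of both libraries, by the smallest margin for Emcn over capillary barcodes. Selp, the P-selectin gene, had 2181 CPM (2086 to 2279) in Kif13b-/- members and 1508 CPM (1447 to 1570) in wild-type members. In single members it ranged over 0, 14 and 113 UMIs (lowest, median and highest) in the Kif13b-/- library and over 0, 4 and 106 UMIs in the wild-type library. Arterial barcodes had 199 and 110.0 CPM of Selp and capillary barcodes 3.73 and 8.20 CPM in the Kif13b-/- and wild-type libraries. Ackr1, the chemokine-binding receptor, had 309 CPM in Kif13b-/- members and 191 CPM in wild-type members. It had 0 UMIs in Kif13b-/- arterial barcodes, where a floor of 3 UMIs over the class makes the venous level at least 81.6-fold higher, and 1.85 CPM in wild-type arterial barcodes. Sele, the E-selectin gene, had 510 CPM in Kif13b-/- members and 355 CPM in wild-type members, with 31.5 and 15.5 CPM in arterial barcodes. Emcn had 839 and 519 CPM in members, 59.3 and 48.2 CPM in arterial barcodes and 384 and 381 CPM in capillary barcodes.

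Csf3 was no part of the rule but was among the markers given for these cells beforehand, so its level is a description too. It was far higher in members than in the other endothelial classes of both libraries. It had 444 CPM (401 to 489) in Kif13b-/- members and 538 CPM (502 to 576) in wild-type members. Arterial barcodes had 7.57 CPM (6 UMIs) and 5.56 CPM (9 UMIs), and capillary barcodes 24.2 and 16.4 CPM. The log2 ratio of venous over arterial barcodes was 5.76 in the Kif13b-/- library and 6.52 in the wild-type library. Csf3 was detected in 54.0% of Kif13b-/- members and 49.5% of wild-type members, and in 0 of 108 and 0 of 209 T and B cell barcodes of median depth 6034.5 and 3727 UMIs (upper limits 3.36% and 1.75%). Smooth muscle barcodes had a Csf3 UMI in 3.07% and 2.78%. Thinned to 1000 UMIs, 35.6% of Kif13b-/- members and 30.4% of wild-type members had a Csf3 UMI. At full depth, 7 of the 32 Kif13b-/- and 71 of the 128 wild-type members without more UMIs of another lineage had one. The gene was unevenly spread over members: the 75th percentile of members was 1515 CPM in the Kif13b-/- library and 839 CPM in the wild-type library, while the 25th percentile was 0 in both.

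**Figure D1:**
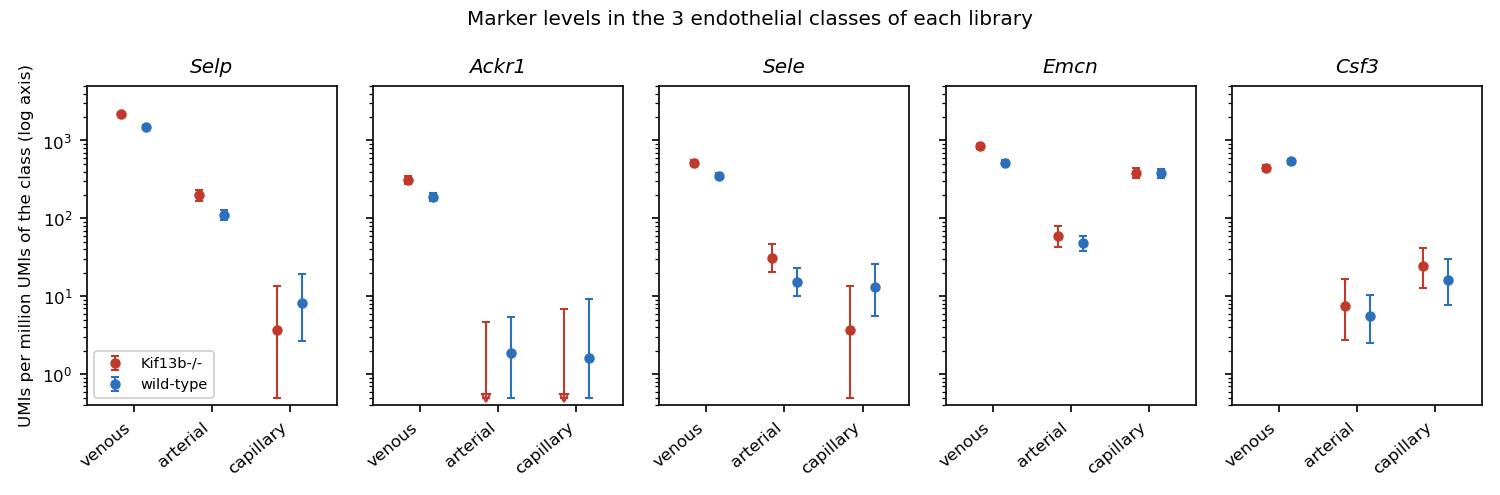
Level of each marker in venous, arterial and capillary barcodes, in CPM on a log axis, with Kif13b-/- in red left of wild-type in blue. Points are sums over barcodes of 1 library, bars are 95% Poisson intervals, and open triangles mark sums of 0; Csf3, outside the rule, sits at 444 and 538 CPM in venous barcodes and below 25 CPM elsewhere.

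Levels differed with the leading panel gene. Members led by Selp and members led by Emcn differed in genes that the rule did not read, and in the same direction in both libraries. The 66 Kif13b-/- and 244 wild-type members led by Selp had Csf3 at 735 and 770 CPM, against 39.5 and 92.9 CPM in the 12 Kif13b-/- and 53 wild-type members led by Emcn. Il6, a cytokine of the acute phase, had 542 and 479 CPM in the first and 113 and 86.5 CPM in the second. Ptgs2, the inducible cyclooxygenase, had 508 and 609 CPM against 12.2 and 224 CPM. Tll1, a tolloid-like metalloprotease, had 527 and 437 CPM against 18.2 and 103 CPM. In Kif13b-/- members these genes also differed with RNA of other lineages. Members with more UMIs of another lineage had 944 CPM of Csf3 and 698 of Il6, and the others 71.4 and 102. Ptgs2 had 648 against 36.7 CPM and Tll1 571 against 129 CPM. In wild-type members Csf3 had 469 against 647 CPM and Il6 353 against 355 CPM. Ptgs2 had 528 against 463 CPM there and Tll1 278 against 380 CPM. The part of each was not tested.

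Members led by Emcn had the higher level of the VEGF receptor Kdr, with 505 and 320 CPM in the Kif13b-/- and wild-type libraries, against 133 and 107 CPM in members led by Selp. Kdr also differed with RNA of other lineages. It had 104 and 80.3 CPM in members with more UMIs of another lineage and 409 and 238 CPM in the others. Plvap, the diaphragm protein of fenestrated and venous endothelium, had 1061 and 826 CPM in members led by Emcn and 771 and 521 CPM in those led by Selp. Both subsets therefore carried Plvap, and Nrp2 was likewise present in both. Prox1, the lymphatic transcription factor, had 6.08 CPM in Kif13b-/- members led by Emcn and 19.2 CPM in those led by Selp, and 179 and 79.7 CPM in the same subsets of wild-type members. Depth differed as well. The 12 Kif13b-/- members led by Emcn had a median of 22054 UMIs and held 328834 of the 903791 Kif13b-/- UMIs, while the 53 wild-type ones had a median of 3870 UMIs and held 312243 of 1542651.

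**Figure D2:**
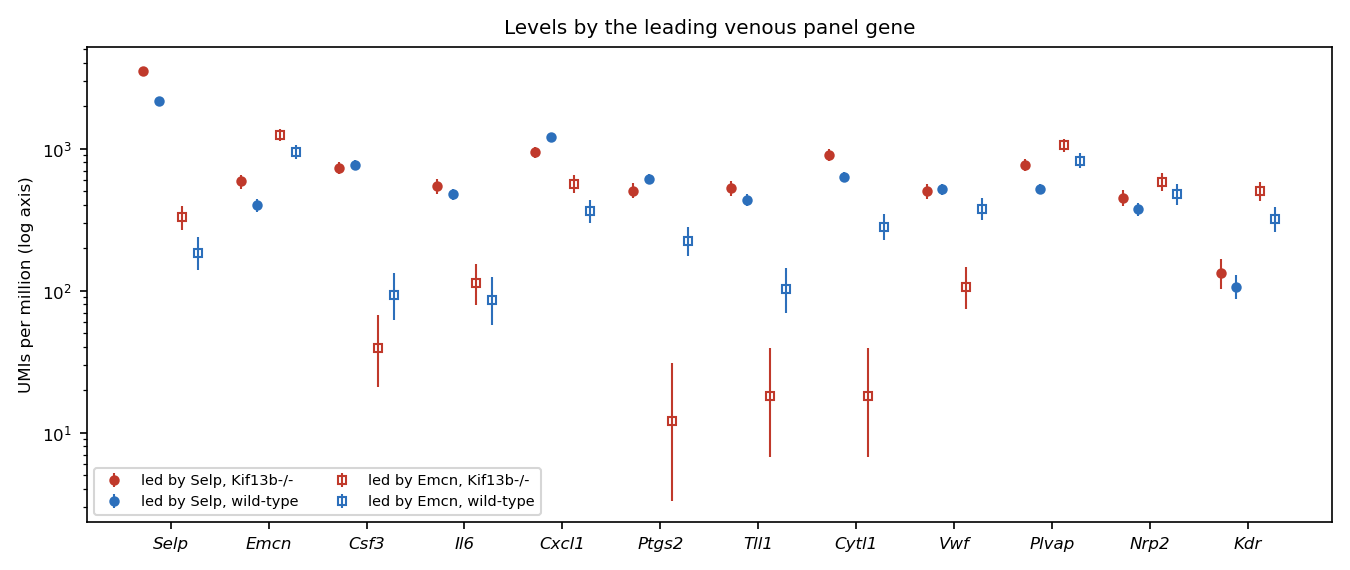
Level of 12 genes in members led by Selp (filled circles) and led by Emcn (open squares), in CPM on a log axis, Kif13b-/- in red and wild-type in blue, with 95% Poisson intervals. Csf3, Il6, Ptgs2 and Tll1 are lower and Kdr is higher in the members led by Emcn of both libraries. Members with more UMIs of another lineage are not set apart here.

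Against arterial barcodes the members had a venous signature outside the panel genes. Of 5359 genes with at least 50 UMIs over the 2 classes in each library, 168 were past 2-fold higher in venous barcodes in both libraries, a background of 3.13%, and 115 were past 2-fold lower in both, a background of 2.15%. These counts were 68 and 24 without barcodes with 2 or more lymphatic marker UMIs, and 107 genes were higher without barcodes with more UMIs of another lineage. The first filter kept 161 of 314 Kif13b-/- and 743 of 1299 wild-type endothelial barcodes, and the second kept 115 and 378. Fewer barcodes leave fewer genes with at least 50 UMIs, so the counts fall for that reason too, and the number measured is not given here. Of 20 measured genes of a venous identity list, 11 were past 2-fold higher and 0 past 2-fold lower, and the median log2 ratio was 1.44 in the Kif13b-/- library and 1.58 in the wild-type library, where all genes tested had medians of 0.04 and -0.03. Plvap had log2 ratios of 1.91 and 2.17, and Lrg1, a secreted glycoprotein of venules, 2.18 and 1.84. Il1r1, the interleukin-1 receptor, had 2.90 and 1.94. Nr2f2, the transcription factor that specifies veins, had 165 and 263 CPM in Kif13b-/- and wild-type members and 84.5 and 65.5 CPM in arterial barcodes, and missed the 2-fold mark in the Kif13b-/- library.

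The 12 genes highest over arterial barcodes in both libraries were Csf3, the potassium channel Kcnc2, the homeobox gene Meox1, the water channel Aqp1, the VEGF-C and semaphorin co-receptor Nrp2, Ctnnal1, Zfp462, Ccser1, the junction protein Plekha7, Tll1, coagulation factor V (F5) and the phosphodiesterase Pde2a. Aqp1 was the most abundant of them, with 1317 CPM in Kif13b-/- members and 989 CPM in wild-type members, and 102 and 103 CPM in arterial barcodes. Nrp2 had 489 and 374 CPM in members and 37.8 and 41.4 CPM in arterial barcodes. Neither was high over capillary barcodes, where Nrp2 had 464 and 364 CPM. Tll1 differed between the libraries, with log2 ratios of 2.83 and 6.55, since arterial barcodes held 44.1 CPM in the Kif13b-/- library and 3.09 CPM in the wild-type library.

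The 12 genes lowest against arterial barcodes were the Notch ligand Jag2, the calcium pumps Atp2a3 and Atp2b2, Nos1ap, Sox13, the receptor phosphatases Ptprj and Ptprr, nebulette (Nebl), Trerf1, Pi16, Prdm16 and connexin 37 (Gja4). Ptprj had 112 and 201 CPM in Kif13b-/- and wild-type members and 879 and 837 CPM in arterial barcodes. Gja4 had 44.3 and 49.9 CPM in members and 248 and 188 CPM in arterial barcodes. Of 26 measured genes of an arterial identity list, 13 were past 2-fold lower in members, among them Jag1, Hey1, Hey2, Notch4, Eln and Fbln5, and 1 (Cxcr4) was past 2-fold higher. The Cxcr4 value rested on few barcodes: 1 barcode held 77.3% of its UMIs in Kif13b-/- members. Notch and BMP genes gave 5 lower (Jag1, Jag2, Hey1, Hey2 and Notch4) and 1 higher (Smad1) of 25.

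Against capillary barcodes, 191 of 4777 genes were past 2-fold higher in members in both libraries (4.00%) and 160 past 2-fold lower (3.35%). The higher count was 107 without barcodes with 2 or more lymphatic marker UMIs and 95 without barcodes with more UMIs of another lineage. Here too the filters left fewer genes measured, and their number is not given. The 12 highest were F5, the ectonucleotidase Nt5e, von Willebrand factor (Vwf), the acute phase gene Saa3, Csf3, Adgrg6, Cytl1, Prnd, Ehd3, ephrin-A5 (Efna5), Mctp1 and Tll1. F5 had 118 and 135 CPM in Kif13b-/- and wild-type members and 0 UMIs in capillary barcodes of either library, at least 21.2-fold and 27.5-fold higher against a floor of 3 UMIs per class. Vwf had 351 and 476 CPM in members and 9.32 and 16.4 CPM in capillary barcodes, and arterial barcodes had 400 and 294 CPM. Prnd had a smaller ratio of -0.14 when Emcn was left out of the panel, and 1 barcode held 46.0% of its Kif13b-/- UMIs. Saa3 is uncertain, since 1 barcode held 97.5% of its Kif13b-/- UMIs and 1 held 67.5% of its wild-type UMIs.

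The 12 lowest against capillary barcodes were the channels Aqp7 and Trpm3, Ablim3, the transporters Slc28a2 and Slc1a1, Timp4, carbonic anhydrase 4 (Car4), Clic5, the transcription factors Tcf15 and Pparg, Lnx1 and Ccdc85a. Aqp7 had 3.32 and 7.13 CPM in Kif13b-/- and wild-type members and 175 and 189 CPM in capillary barcodes. Pparg had 60.9 and 24.6 CPM in members and 513 and 417 CPM in capillary barcodes. Of 19 measured genes of a capillary identity list 15 were past 2-fold lower in members, among them the fatty acid carriers Fabp4 and Fabp5, the fatty acid receptor Cd36 and lipoprotein lipase (Lpl), and 0 past 2-fold higher. Fabp4 was nonetheless abundant in members, with 4854 and 3556 CPM, against 22725 and 19281 CPM in capillary barcodes. Of 21 venous identity genes 14 were past 2-fold higher over capillary barcodes and 0 lower.

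**Figure D3:**
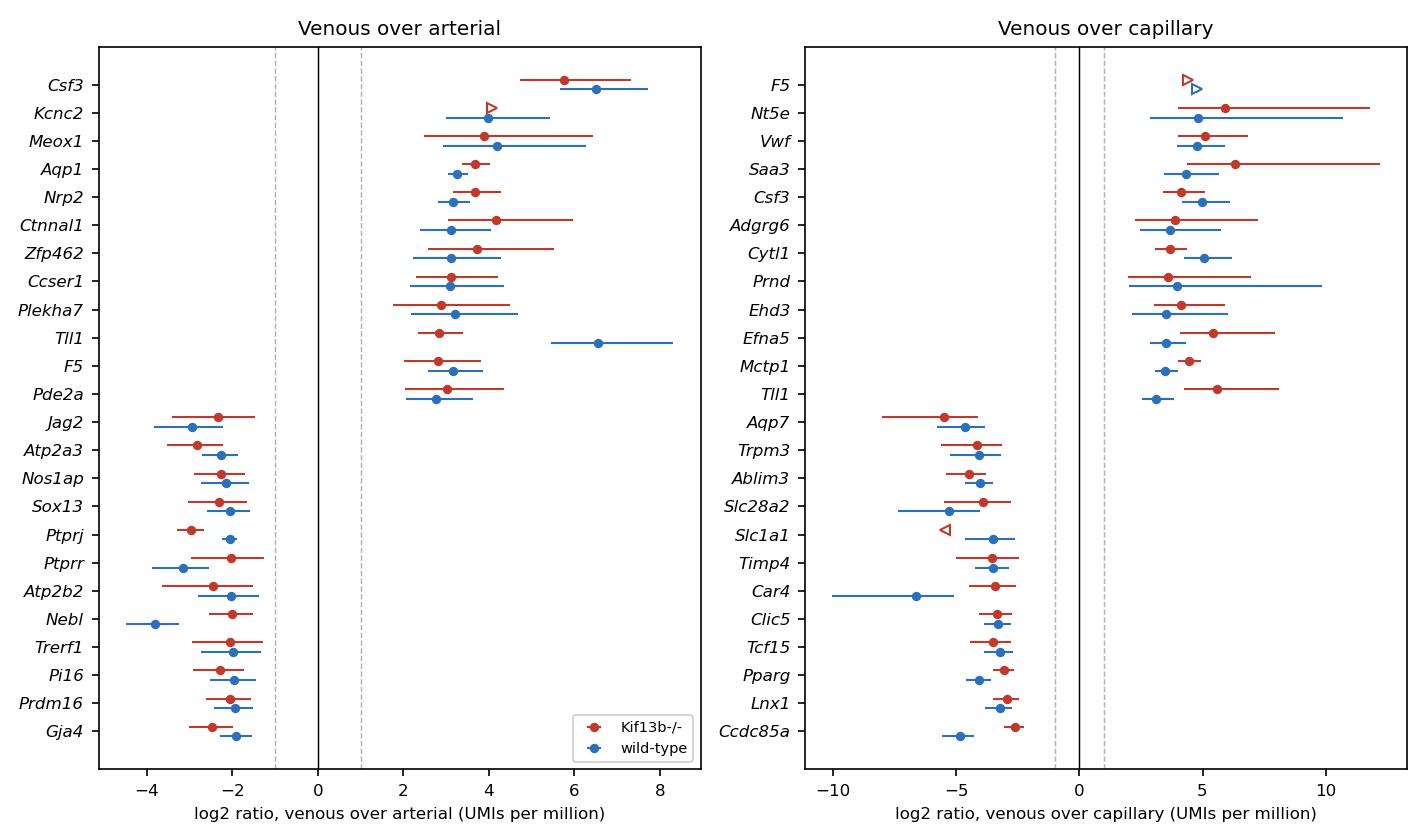
Log2 ratio of venous over arterial (left) and over capillary (right) levels for the 12 highest and 12 lowest genes, Kif13b-/- in red above wild-type in blue, with 95% exact intervals; dashed lines mark 2-fold. Open triangles are bounds where 1 class had 0 UMIs and was set to a floor of 3; both libraries lie on the same side of 0 for each gene, as the choice of genes required.

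Inflammatory genes were compared with both other endothelial classes. Over all genes, 3.13% were past 2-fold higher and 2.15% lower than in arterial barcodes. Against capillary barcodes these shares were 4.00% and 3.35%. Of 19 leukocyte adhesion genes 1 was past 2-fold higher (Bst1) and 2 were past 2-fold lower (Podxl and Icam2) than in arterial barcodes, and 4 (Vcam1, Cd9, Vwf and Bst1) were past 2-fold higher and 0 lower than in capillary barcodes. Icam1, a ligand of leukocyte integrins, had 1023.5 and 905 CPM in Kif13b-/- and wild-type members, 621 and 488 CPM in arterial barcodes and 694 and 669 CPM in capillary barcodes. Vcam1 had 771 and 1241 CPM in members, 1370 and 1063 CPM in arterial barcodes and 129 and 100.1 CPM in capillary barcodes. It was also high in fibroblasts, at 2249.9 CPM. Of 17 chemokine and cytokine genes 1 (Csf3) was past 2-fold higher than in arterial barcodes in both libraries. Against capillary barcodes 3 of 14 (Csf3, Il6 and Ackr3) were past 2-fold higher and 2 (Kitl and Cxcl12) lower. Il6 had log2 ratios of -0.36 and 1.77 over arterial barcodes, opposite in sign, since Kif13b-/- arterial barcodes had 457 CPM and wild-type ones 103 CPM. Of 25 NF-kB and TNF response genes 2 were past 2-fold higher (Il1r1 and Tnip1) and 0 lower. The level of Nfkbia, an inhibitor and target of NF-kB, was 1839 and 1982 CPM in members and 1019 and 1360 CPM in arterial barcodes.

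Vessel function genes were also compared with capillary and arterial barcodes. Over all genes, 4.00% were past 2-fold higher and 3.35% lower than in capillary barcodes. Of 14 vascular tone genes 5 were past 2-fold higher than in capillary barcodes (Ptgs1, Ptgs2, Ptgis, Ace and endothelin-1, Edn1) and 1 lower (Ednrb). Of 15 coagulation genes 4 were higher, among them Thbs1, Vwf and the protein C receptor Procr, and 0 lower. Lipid uptake genes gave 9 lower, among them Fabp4, Cd36 and the caveolin genes Cav1 and Cav2, and 1 higher (Ehd4) of 20. Interferon response genes gave 5 lower (Bst2, Gbp7, Gbp4, Stat2 and Rsad2) of 14. Against arterial barcodes, 3.13% of all genes were past 2-fold higher and 2.15% lower. Lipid uptake genes gave 4 higher (Fabp4, Abca1, Cd36 and Scarb1) and 0 lower of 20 there. Vascular tone genes gave 2 higher (Calcrl and Ptgs1) and 0 lower of 15. Coagulation genes gave 1 higher (Tfpi) and 0 lower of 17, and interferon response genes 1 higher (Iigp1) and 0 lower of 14. Over arterial barcodes, Tfpi, the inhibitor of tissue factor, had log2 ratios of 3.39 and 2.22, and Kdr had 1.95 and 1.92.

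The targeted gene was detected in both libraries. Kif13b (chromosome 14, 64647265 to 64809617, plus strand) had 50.9 CPM (37.3 to 67.9) in Kif13b-/- members and 70.0 CPM (57.4 to 84.5) in wild-type members, a log2 ratio of -0.45 (-0.99 to 0.05). The counts come from 3' ends and the deleted part of the gene was not given in the sources used here, so this level does not check the label, and every direction between the libraries rests on that label. Mertk had 60.9 and 68.1 CPM in Kif13b-/- and wild-type members, a log2 ratio of -0.16 (-0.66 to 0.32).

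Between the libraries, 603 of 6489 genes with at least 50 UMIs were past 1.5-fold higher in Kif13b-/- members (9.29%) and 585 past 1.5-fold lower (9.02%), with a median log2 ratio of 0.03. Scaled by median-of-ratios, which lowers every ratio by 0.07, the counts were 479 higher and 707 lower. The panel genes were higher in Kif13b-/- members, with log2 ratios of 0.53 for Selp, 0.70 for Ackr1, 0.52 for Sele and 0.69 for Emcn, and Csf3 was at -0.28 (-0.45 to -0.10). These values depended on which members were summed. In the 32 Kif13b-/- and 128 wild-type members in which no other lineage outnumbered the pan-endothelial genes, Selp had 1191 and 2029 CPM, a log2 ratio of -0.77, Ackr1 had 172 and 238 CPM, a log2 ratio of -0.47, and Csf3 had 71.4 and 647 CPM, a log2 ratio of -3.16 (-3.71 to -2.69). Those 32 and 128 members gave 525 genes past 1.5-fold higher and 412 lower of 4019 measured, with a median log2 ratio of 0.04. In the 55 Kif13b-/- and 244 wild-type members with more UMIs of another lineage, Selp had 3511 and 1179 CPM and Csf3 944 and 469 CPM. Col2a1, the cartilage collagen, moved with the second group of Kif13b-/- members, at 4147 CPM there, 433 CPM in the same group of wild-type members, and 1.93 and 11.7 CPM in the first groups. The part of these other lineages in the levels was not tested.

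The 12 genes with the highest Kif13b-/- over wild-type ratio were the peptide ligand apelin (Apln) and its receptor Aplnr, the substance P receptor Tacr1, Ccdc85a, the cytokine Lif, the Rab5 exchange factor Rin2, the matrix protein Vwa1, the histamine receptor Hrh1, the ubiquitin ligase Hecw2, Fam167b, the integrin Itga2 and dysferlin (Dysf). Apln had 78.6 CPM in Kif13b-/- members and 2.59 CPM in wild-type members, but 1 Kif13b-/- barcode held 90.1% of the UMIs. Aplnr had 134 CPM in 23 of the Kif13b-/- members and 25.9 CPM in 25 of the wild-type members, a log2 ratio of 2.36 (1.84 to 2.92). Rin2 had 268 and 60.9 CPM, a log2 ratio of 2.13 (1.79 to 2.50), and in arterial barcodes the ratio was -0.45. Lif had 96.3 and 20.1 CPM, a log2 ratio of 2.25 (1.65 to 2.90), and arterial barcodes had nearly the same ratio of 2.26. Lif is high in chondrocyte barcodes, at 443 CPM, as is Rin2, at 845 CPM. In members without more UMIs of another lineage Lif had 1 Kif13b-/- UMI and 7 wild-type UMIs, a ratio interval of -8.10 to 0.36, while Rin2 had a ratio of 1.34 (0.62 to 2.13) and Aplnr one of 2.66. Hrh1 had 15 Kif13b-/- and 16 wild-type UMIs in those members, a ratio of 0.11 (-1.01 to 1.22). Fam167b, at 95.2 and 24.0 CPM, had a ratio of -0.85 among members of 2000 to 10000 UMIs. Tacr1 had 54.2 and 2.59 CPM over all members, with 49 UMIs in 10 Kif13b-/- members and 4 UMIs in 2 wild-type members.

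The 12 lowest were Ccl21a, Nts, Mmrn1, the collagenase Mmp13, Chil1, Pkhd1l1, Prox1, the stromelysin Mmp3, Foxp2, Ahnak2, Dgkb and the potassium channel subunit Kcnab1. Ccl21a, Nts, Mmrn1 and Prox1 are known from lymphatic endothelium, for which Ccl21a encodes a chemokine. The first 3 had 0 UMIs in Kif13b-/- members, which makes wild-type levels of 172, 61.6 and 53.8 CPM at least 51.8-fold, 18.6-fold and 16.2-fold higher against a floor of 3 UMIs over the class. Reads of Ccl21a may be split with near-identical copies, and its wild-type UMIs were uneven, 60.8% of them in 1 barcode, as were those of Mmrn1, 66.3% in 1 barcode. Prox1 had 13.3 CPM in 8 Kif13b-/- members and 92.7 CPM in 58 wild-type members, a log2 ratio of -2.75 (-3.79 to -1.95), and 0.69 after thinning to 1000 UMIs. Of 7 measured genes in the lymphatic list 6 were past 1.5-fold lower and 0 higher, beside 9.02% lower and 9.29% higher over all genes. The summed level of 11 lymphatic markers was 295 CPM in Kif13b-/- members, with Mmrn1, Ccl21a, Stab2 and Nts at 0, and 917 CPM in wild-type members with all 11 detected. It was not particular to members. The same sum was 149 and 3153 CPM in Kif13b-/- and wild-type capillary barcodes, and 605 and 555 CPM in arterial barcodes. With barcodes of 2 or more UMIs of 6 lymphatic genes left out, the venous share was 27.6% in the Kif13b-/- library and 26.8% in the wild-type library.

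Several other genes at the low end were also high in stromal barcodes, and the part of stromal RNA in their levels was not tested. Mmp3 had 89.6 CPM in Kif13b-/- members and 604 CPM in wild-type members, and fibroblast barcodes had 2457 CPM. In arterial barcodes it was the other way, at 592 and 447 CPM. Foxp2 had 23.2 and 132 CPM in members, with 1 barcode holding 39.2% of its wild-type UMIs, and its ratio was 0.02 after thinning. Chil1 had 7.75 and 255 CPM in members and, with the same direction, 10.1 and 315 CPM in arterial barcodes, and chondrocyte barcodes had 846 CPM. In members without more UMIs of another lineage, Mmp3 had 21.2 and 33.5 CPM and Chil1 1.93 and 10.1 CPM, and both ratio intervals include equal levels. Kcnab1 had 23.2 and 119 CPM over all members and 3.86 and 35.2 CPM in those members, with smooth muscle barcodes at 606 CPM.

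**Figure D4:**
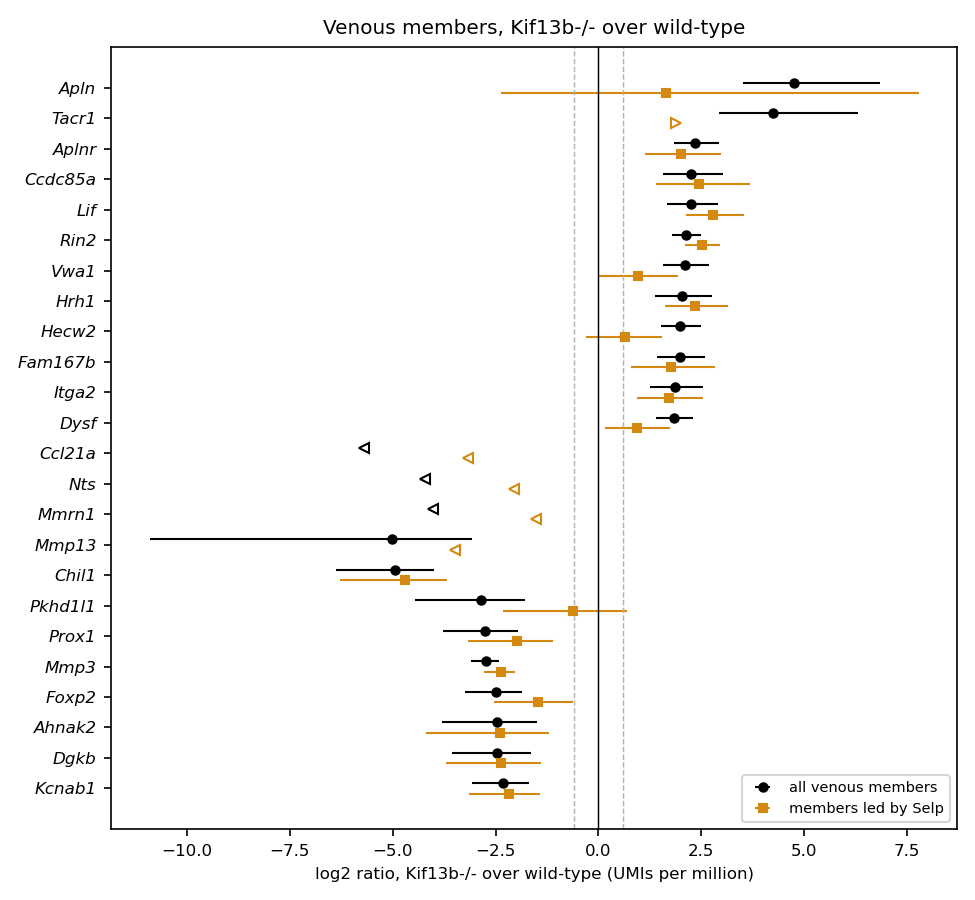
Log2 ratio of Kif13b-/- over wild-type levels for the 12 highest and 12 lowest genes, over all members (black circles) and over members led by Selp (orange squares), with 95% exact intervals; dashed lines mark 1.5-fold. Open triangles are bounds against a floor of 3 UMIs, and Apln among members led by Selp rests on 2 and 1 UMIs.

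Over all members the VEGF and angiopoietin list had a median ratio above 0. The shares past 1.5-fold over all genes were 9.29% higher and 9.02% lower. Of 17 measured genes 9 were past 1.5-fold higher in Kif13b-/- members (Flt1, Eng, Kdr, Nrp1, Angpt2, Robo4, Aplnr, Pgf and Apln) and 1 lower (Vegfc), with a median log2 ratio of 0.63 beside 0.03 over all genes. Flt1, a VEGF receptor, had 1076 CPM in Kif13b-/- members and 657 CPM in wild-type members, a log2 ratio of 0.71 (0.58 to 0.84), and Kdr had 279 and 141 CPM, a ratio of 0.98 (0.71 to 1.25). Angpt2, a ligand of TIE2, had 135 and 60.9 CPM, and 1 Kif13b-/- barcode held 53.3% of its UMIs. For Pgf that share was 90.6%. Over the members led by Selp alone the list gave 3 higher and 1 lower of 15, with a median of 0.26 beside -0.02 over all genes, and the ratio of Angpt2 was 0.02 and that of Kdr 0.32 (-0.14 to 0.77). The capillary identity list had a median of 0.40 over those members. In members without more UMIs of another lineage the VEGF and angiopoietin list gave 7 higher and 1 lower of 17, with a median of 0.51. All 4019 genes measured in those members gave 525 higher and 412 lower, with a median of 0.04.

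Basement membrane and matrix genes gave 7 higher (Sparc, Col4a1, Adamts9, Col4a2, Col15a1, Col18a1 and Lamb1) and 1 lower (Col4a5) of 27, with a median of 0.28. Over all genes measured, 9.29% were past 1.5-fold higher and 9.02% lower. The collagen IV chain Col4a1 had 1412 and 631 CPM in Kif13b-/- and wild-type members, a log2 ratio of 1.16, and 0.31 in members led by Selp. The median of the list was -0.11 in those members, opposite in sign. Adamts9, a matrix protease, had 1271 and 511 CPM, a ratio of 1.31 (1.18 to 1.45), and 1.48 in members led by Selp. Lipid genes gave 5 higher, among them Abca1, Scarb1 and Abcg1, and 3 lower (Cavin1, Lrp1 and Olr1) of 22. Scarb1, the high-density lipoprotein receptor, had 423 and 169 CPM, a ratio of 1.33 (1.10 to 1.56), with 1.36 in members led by Selp and 1.23 in members without more UMIs of another lineage.

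Over all members the inflammatory lists had no common direction between the libraries. Over all genes measured, 9.29% were past 1.5-fold higher and 9.02% lower. Chemokine and cytokine genes gave 4 higher (Il1b, Tnfsf10, Lif and Ccl5) and 6 lower (Cxcl2, Ccl2, Ackr3, Ccl21a, Cx3cl1 and Ccl19) of 19, with a median of -0.28. In members without more UMIs of another lineage the list gave 3 higher and 6 lower of 12, with a median of -0.64. All 4019 genes measured in those members gave 525 higher and 412 lower. There the ratio was 1.11 (0.51 to 1.75) for Ccl2, -2.60 (-8.56 to -0.30) for Ccl5 and -1.14 (-2.85 to 0.22) for Il1b. Each was opposite in sign to its ratio over all members. Il6 had 356 CPM in Kif13b-/- members and 354 CPM in wild-type members, a ratio of 0.01 (-0.19 to 0.21). It had 102 and 355 CPM in members without more UMIs of another lineage, a ratio of -1.79 (-2.26 to -1.36), and 698 and 353 CPM in the other members. Leukocyte adhesion genes gave 1 higher (Lgals9) and 3 lower (Vcam1, Cd9 and Alcam) of 19 over all members, with a median of 0.18, and Vcam1 had a ratio of -0.69 (-0.81 to -0.56). In members without more UMIs of another lineage the adhesion list gave 2 higher and 4 lower of 18, with a median of -0.26. NF-kB and TNF response genes gave 3 higher (Il1r1, Tnip1 and Ripk1) and 1 lower (Ptgs2) of 25 over all members. They gave 4 higher and 1 lower of 22, with a median of 0.03, in members without more UMIs of another lineage. Over all members Il1r1 had 446 and 241 CPM, a ratio of 0.89 (0.68 to 1.09), with 0.98 in members led by Selp. The difference was smaller in members without more UMIs of another lineage, at 384 and 276.5 CPM. Coagulation genes gave 3 higher (Entpd1, Tfpi and Plau) and 5 lower (Thbs1, Serpine2, Procr, Plat and F8) of 18. Venous identity genes gave 3 higher (Tshz2, Il1r1 and Aplnr) and 4 lower, among them Vcam1 and Nr2f2, of 21, with a median of 0.27. They gave 2 higher and 10 lower of 21, with a median of -0.31, in members without more UMIs of another lineage. Arterial identity genes gave 2 higher and 7 lower of 26 over all members.

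Over all genes measured, 9.29% were past 1.5-fold higher and 9.02% lower, and the list counts here are to be read beside these shares. Of 24 measured genes on a list of reported KIF13B cargo and partners 1 was past 1.5-fold higher (Kdr) and 2 were lower (Lrp1 and Dlg4), with a median of -0.15. Of 19 efferocytosis receptors and ligands 2 were higher (Elmo1 and Itgav) and 3 lower (Lrp1, Cx3cl1 and the TAM receptor Axl), with a median of -0.16. Immediate early genes gave 0 higher and 4 lower (Fos, Egr1, Gadd45b and Fosl1) of 27, with a median of -0.26. They gave 0 higher and 12 lower of 25, with a median of -0.57, in members without more UMIs of another lineage. All 4019 genes measured in those members gave 525 higher and 412 lower. Heat shock genes gave 0 higher and 2 lower (Hspa1b and Cryab) of 14.

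**Figure D5:**
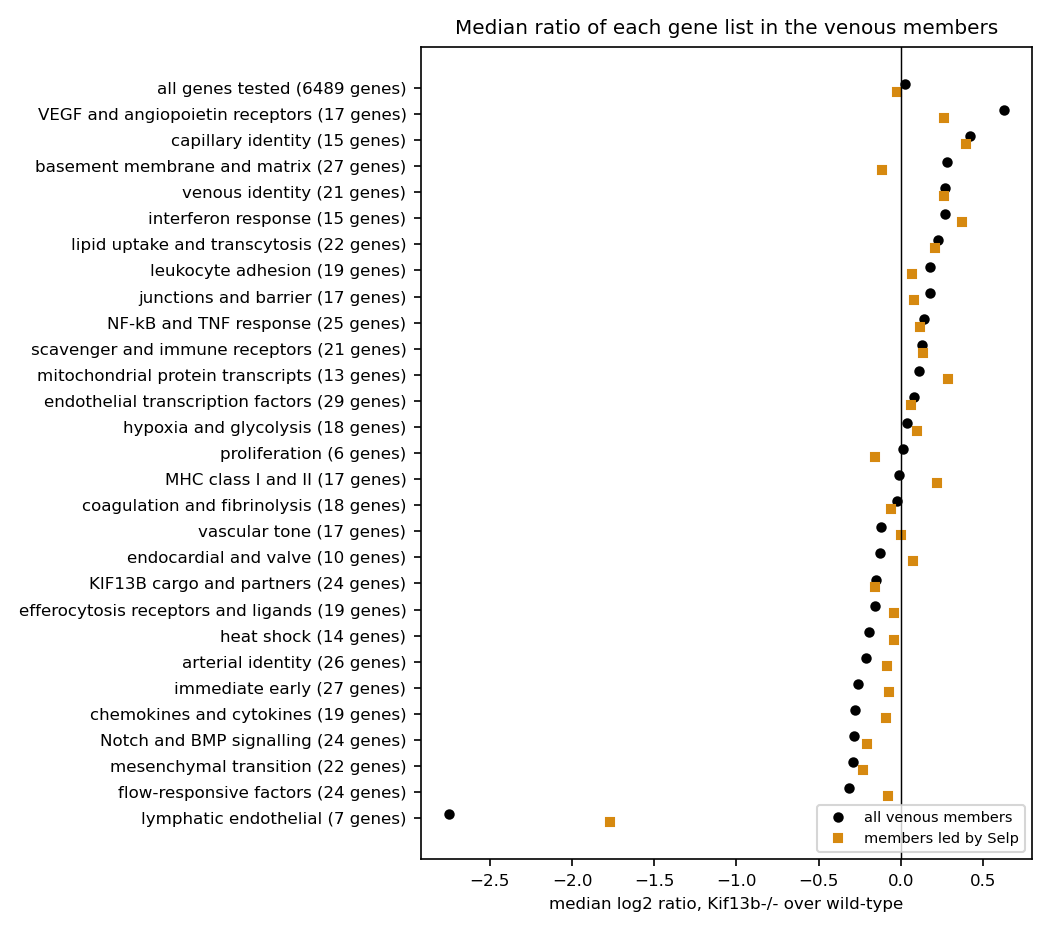
Median log2 ratio of Kif13b-/- over wild-type levels of the measured genes in each list, over all members (black circles; the number of genes is given) and over members led by Selp (orange squares), with all genes tested in the first row. The VEGF and angiopoietin list lies at 0.63 and 0.26 and the lymphatic list furthest below 0.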

How the data were processed

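The deposited files hold UMI counts per gene and barcode for 1 Kif13b-/- and 1 wild-type library, made by the authors with Cell Ranger 8.0.1 per the file headers and mm10 per the submitters' processing notes. No source used here names the gene annotation. 26 of the symbols are shared by several of the 33696 features. The files list 7766 and 21126 barcodes; 6000 cells were loaded and 3000 targeted per library, per the labels.

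Members were gated as described above, and no column was left unused. The members, 28 gene lists, 18 marker sets and the naming rule were chosen with earlier results of these data known. No doublet caller was run; members with more marker UMIs of another lineage, or among the 5% deepest, were left out as alternatives. Counts were summed per library and class and divided by the class total (CPM), and 0.5 UMIs were added to each sum before log2. Genes with at least 50 UMIs over both sums were compared at a fold of 1.5 between libraries, or 2 in both libraries between classes, leaving out the 18 rule genes. Sums carry exact Poisson, ratios exact binomial and shares Clopper-Pearson intervals at 95%, which cover counting error only. Genes named were Selp, Ackr1, Sele, Emcn, Csf3, Kif13b and Mertk whatever their values. To these came the 12 highest and 12 lowest ratios in each comparison among genes of at least 50 CPM in the higher group, whose interval between libraries excluded equal levels; between classes the smaller of the ratios of the 2 libraries ranked them. Ribosomal, mitochondrial, haemoglobin, immunoglobulin, sex-linked, Gm and Rik genes, and genes over 10 times higher in another lineage, were left out of that ranking. From each list 2 to 4 members past the fold were named with values; other members past it are named as counted, chosen after their values were seen. Il6, Icam1, Nr2f2, Nfkbia, Klf2, Vwf, Col2a1 and the genes set by leading panel gene were named after their values were seen. Some genes past the fold are not reported here. Motifs were searched in RefSeq promoters of GRCm38.p6. Python 3.11.15, scipy 1.17.1 and edgeR 4.0.16 (TMM factors only) were used, and the scripts were tested on simulated data. Other settings were the UMI minimum, the panel, thinning, scaling and the gene minimum.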

Additional observations from a re-analysis of the deposited data

Results flagged for a closer look

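Rin2 and Foxp2 stood out because the contrast of venous over arterial barcodes had opposite directions in the 2 libraries, each past 2-fold with a counting interval on 1 side of 0. The difference between the libraries was not tested. For Rin2 the log2 ratio was 1.57 in the Kif13b-/- library (268 CPM in venous and 89.6 CPM in arterial barcodes) and -1.01 in the wild-type library (60.9 and 123 CPM). Kif13b-/- venous barcodes with more UMIs of another lineage had 495 CPM of Rin2 and the others 98.4 CPM. The wild-type values were 75.1 and 38.5 CPM, and chondrocyte barcodes had 845 CPM. For Foxp2 the log2 ratio was -1.75 in the Kif13b-/- library (23.2 and 79.5 CPM) and 1.90 in the wild-type library (132 and 35.2 CPM), where 1 venous barcode held 39.2% of the Foxp2 UMIs. The ratio of Foxp2 between the libraries in venous barcodes was 0.02 after thinning to 1000 UMIs.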

How the results depend on the processing

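No paired analysis was possible because each genotype has 1 library and the labels give no replicate numbers. The venous share was 17.8% in the Kif13b-/- and 15.4% in the wild-type library after thinning to 1000 UMIs. With at least 2000 UMIs per barcode it was 28.7% in the Kif13b-/- and 34.2% in the wild-type library. In the same order it was 26.4% and 24.4% with at least 3 venous UMIs, and 25.2% and 23.9% without Emcn in the panel. Without barcodes with more UMIs of another lineage it was 27.8% and 33.9%. Genes past 1.5-fold between libraries numbered 68 higher and 82 lower after thinning, 1133 and 1194 with at least 20 UMIs per gene, and 341 and 315 with at least 100, where the number of genes tested changes by construction. Over arterial barcodes, 9 higher and 8 lower were left after thinning, 68 and 24 without barcodes with 2 lymphatic UMIs, 105 and 72 with at least 100 UMIs per gene, 173 lower with at least 20, and 107 higher without barcodes with more UMIs of another lineage. Over capillary barcodes the counts were 10 and 8 after thinning, 246 lower with each barcode weighing the same, 319 and 262 with at least 20 UMIs, 119 and 93 with at least 100, 107 higher without lymphatic barcodes and 95 higher without those of another lineage; the cause was not tested. Thinning and leaving barcodes out also lowered the number of genes tested. Of 522 values of named genes between libraries 15 had the other sign, over 9 of 31 genes. Among ratios past 1.5-fold these were Ackr1 to -0.47 without barcodes of another lineage, Prox1 to 0.69 and Foxp2 to 0.024 after thinning, and Fam167b to -0.85 among barcodes of 2000 to 10000 UMIs. Among smaller ratios Selp had -0.77 and Sele -0.23 without barcodes of another lineage, Csf3 had up to 0.30, Kif13b up to 0.03 and Mertk -0.67 to 0.60. Prnd over capillary barcodes reversed to -0.14 without Emcn and -0.74 after thinning. List medians had the other sign in at least 1 setting for 20 of 28 lists, none of them past 1.5-fold over all members. TMM and median-of-ratios factors shifted log2 ratios by 0.04 and 0.07. The restrictions to members led by Selp, to 2000 to 10000 UMIs, to barcodes without 6 lymphatic genes and without the top barcode of a gene were chosen after seeing the data. Depth limits genes near 3 UMIs, and 1 library per genotype limits every comparison between them.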

Other observations

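Other gene groups between the libraries are given as values. Over all genes measured, 9.29% were past 1.5-fold higher and 9.02% lower. MHC genes gave 0 past 1.5-fold higher in Kif13b-/- members and 3 lower (Cd74, H2-Eb1 and H2-Aa) of 17, with a median log2 ratio of -0.01. In members without more UMIs of another lineage they gave 0 higher and 7 lower of 14, with a median of -0.53. All 4019 genes measured in those members gave 525 higher and 412 lower. H2-Aa had 91.8 CPM in Kif13b-/- members and 159 CPM in wild-type members, with B cell barcodes at 2606 CPM. Mesenchymal transition genes gave 3 higher (Sparc, Tgfbr3 and Snai1) and 6 lower (Tagln, Acta2, S100a4, Fbn1, Cnn1 and Twist1) of 22; Acta2 had 591 and 1244 CPM, with smooth muscle barcodes at 9500.3 CPM. Flow-responsive genes gave 2 higher (Angpt2 and Ahr) and 6 lower of 24, and Klf2, the shear-induced transcription factor, had 387 and 491 CPM in members and 998 and 999 CPM in arterial barcodes. Junction genes gave 0 higher and 0 lower of 17. Endothelial transcription factors gave 5 higher (Tcf4, Ets1, Elk3, Ets2 and Prdm1) and 4 lower (Nr2f2, Gata6, Hoxa5 and Foxc2) of 29. Capillary identity genes gave 4 higher (Kdr, Mgll, Pparg and Apln) and 0 lower of 15.

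Vascular tone genes gave 1 higher (Trpv4) and 3 lower (Ptgs2, Edn1 and Gucy1a1) of 17, Notch and BMP genes 1 higher (Eng) and 4 lower (Id3, Notch2, Bmp2 and Hey2) of 24, scavenger and immune receptors 2 higher (Il4ra and Tlr2) and 3 lower, among them Procr, of 21, and endocardial and valve genes 1 higher (Hapln1) and 1 lower (Edn1) of 10. Proliferation genes gave 2 higher (Mki67 and Tyms) and 1 lower (Stmn1) of 6, hypoxia and glycolysis genes 1 higher (Pfkfb3) and 0 lower of 18, and mitochondrial protein transcripts 1 higher (mt-Nd3) and 1 lower (mt-Nd4l) of 13. The median log2 ratio of these 7 lists lay between -0.28 and 0.13. The shares past 1.5-fold over all genes were 9.29% higher and 9.02% lower.

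Mctp1, a calcium-binding membrane protein, had 1675 CPM in Kif13b-/- members and 765 CPM in wild-type members, a log2 ratio of 1.13 (1.02 to 1.24). The ratio was 1.32 among members led by Selp and 0.37 (0.20 to 0.55) in members without more UMIs of another lineage. In arterial barcodes it had 274 and 166 CPM and in capillary barcodes 76.4 and 67.2 CPM.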
